A study of Mus musculus with 12 samples.

Results

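Perineuronal nets are lattices of extracellular matrix that wrap the soma and proximal dendrites of some neurons. A backbone of hyaluronan carries chondroitin sulfate proteoglycans of the lectican family, link proteins clamp the lecticans onto hyaluronan, and tenascin-R crosslinks the lecticans to each other. In the hippocampus they are best known around parvalbumin interneurons and CA2 pyramidal neurons, and net components are made by neurons as well as by astrocytes and oligodendrocyte precursors. The 10 genes described here were taken by name: the lecticans *Acan* (aggrecan), *Bcan* (brevican), *Ncan* (neurocan) and *Vcan* (versican), the link proteins *Hapln1* and *Hapln4*, the tenascins *Tnr* and *Tnc*, the hyaluronan synthase *Has2*, and *Ptprz1*, a receptor-type phosphatase whose secreted form, phosphacan, binds tenascin-R. They are 10 of the 55421 genes in the count files, and all 10 were among the 22592 genes that had more than 20 reads over the 12 libraries and were tested.

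The libraries were poly(A) RNA-seq of mouse hippocampus from 4 groups of 3 mice: wild type with vehicle (WT-Veh), wild type with Nutlin-3 (WT-Nut3), *Fmr1* knockout with vehicle (KO-Veh) and *Fmr1* knockout with Nutlin-3 (KO-Nut3). Nutlin-3, an inhibitor of the ubiquitin ligase MDM2, was injected intraperitoneally at 2 months of age, as 5 doses of 10 mg/kg in dimethyl sulfoxide on alternate days, and tissue was taken at 6 months. Vehicle was injected in its place in the other groups, all mice were of C57B/L6 background, and each library is named by its animal (RH1 to RH16). The comparisons ask whether loss of *Fmr1*, or a brief Nutlin-3 treatment months earlier, left a difference in the RNA of net components. Because these are bulk samples, fewer cells of a type and less RNA per cell cannot be told apart.

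Each library held 21772933 (WT-Veh RH2) to 25498894 (WT-Nut3 RH9) reads, of which 17150820 to 20040482 fell on genes (a read may stand for a read pair, since the labels and the study's methods differ on the layout). The 10 net genes together took 0.119% (WT-Nut3 RH9) to 0.137% (KO-Veh RH16) of the reads on genes. Levels are given as CPM, reads per gene scaled by TMM to a common library size. *Fmr1*, the targeted gene, was measured at 77.5 ± 2.11 CPM in WT-Veh and 75.8 ± 2.26 CPM in WT-Nut3 (SD, n = 3 each). It was measured at 34.2 ± 2.72 CPM in KO-Veh and 31.6 ± 3.71 CPM in KO-Nut3 (SD, n = 3 each), so every KO library lay below every WT library, as its label requires.

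One library stood apart from the rest in its regional markers and has to be named before the net genes. KO-Nut3 RH6 had a summed level of the 7 thalamus markers of 353 CPM, against 128 to 156 CPM in the other 11 libraries. The other sums were 139, 135 and 141 CPM in WT-Veh, 156, 134 and 150 CPM in WT-Nut3, 134, 128 and 147 CPM in KO-Veh, and 148 and 137 CPM in KO-Nut3 RH8 and RH13. In this library 5 of the 7 genes were at their highest, among them *Slc17a6*, a vesicular glutamate transporter, at 113 CPM against 8.42 to 22.2 CPM elsewhere. *Rora*, the most abundant gene of the list, reached 77.3 CPM against a lowest level of 36.8 CPM, and no gene of the list was at 0 in any library. The summed level of the 8 markers of hippocampal principal neurons was 946 CPM in RH6. It was 1491, 1301 and 1362 CPM in WT-Veh, 1344, 1365 and 1470 CPM in WT-Nut3, 1299, 1337 and 1482 CPM in KO-Veh, and 1326 and 1368 CPM in the other KO-Nut3 libraries, and 7 of the 8 genes were lowest in RH6. The most abundant of them, the transcription factor *Zbtb20*, ranged from 357 to 627 CPM, *C1ql2* had the widest range with 71.0 to 154 CPM. None was at 0 in any library, which in bulk tissue does not show how a library was dissected. RH6 was also the highest library for 17.0% and the lowest for 19.0% of the 15346 genes with a mean of at least 1 CPM. The fits of the comparisons with KO-Nut3 were therefore repeated without RH6.

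The genes lie in the genome as lectican and link protein neighbours (GRCm38, GENCODE M21). *Bcan* is at chr3:87987531-88000230 on the minus strand, and *Hapln2* lies 21519 bp from it on the same strand. *Ncan* (chr8:70093085-70120873, minus strand) and *Hapln4* (chr8:70083457-70090862, plus strand) are 2222 bp apart, and *Vcan* (chr13:89655312-89742509, minus strand) and *Hapln1* (chr13:89539796-89611652, plus strand) are 43659 bp apart. *Acan* (chr7:79053483-79115099, plus strand) ends 2 bp from the end of *Hapln3*, which runs on the opposite strand. The other members are *Tnr* at chr1:159523769-159931729 (plus strand), *Tnc* at chr4:63959785-64047015 (minus strand), *Has2* at chr15:56665627-56694539 (minus strand) and *Ptprz1* at chr6:22875502-23052916 (plus strand).

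Levels of different genes were compared per kb of the longest annotated transcript, over all 12 libraries. *Bcan* was highest, with 101 ± 6.32 CPM per kb (SD, n = 12), 2.85 times the next gene. *Hapln4* followed with 35.4 ± 2.26, *Ptprz1* with 34.9 ± 1.34 and *Ncan* with 31.1 ± 2.07 CPM per kb. The ranges of *Hapln4* and *Ptprz1* overlapped, as did those of *Ptprz1* and *Ncan*. *Tnr* came next with 21.3 ± 2.56 CPM per kb, then *Hapln1* with 5.04 ± 0.621 and *Vcan* with 2.22 ± 0.256 CPM per kb. *Tnc* at 0.817 ± 0.188 and *Acan* at 0.660 ± 0.176 CPM per kb overlapped, and *Tnc* was above *Acan* in 8 of the 12 libraries. *Has2* was lowest with 0.0698 ± 0.0519 CPM per kb. With coding length in place of transcript length, *Tnr* moved from place 5 to place 3 and *Ptprz1* from place 3 to place 5, while the other genes kept their places. The lead of *Bcan* over *Hapln4* then fell to 1.11 times, and their ranges overlapped, although *Bcan* was above *Hapln4* in each of the 12 libraries. Of the neighbours in the genome, *Ncan* and *Hapln4* lay close together per kb of transcript but at 58.8 and 107 CPM per kb of coding length, *Vcan* was below *Hapln1*, and *Bcan* was above *Hapln2* (14.8 ± 2.61 CPM per kb). *Hapln3* was below *Acan* per kb of transcript, at 0.397 ± 0.0889 CPM per kb, and above it per kb of coding length, at 1.24 against 0.759 CPM per kb.

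**Figure D1:**
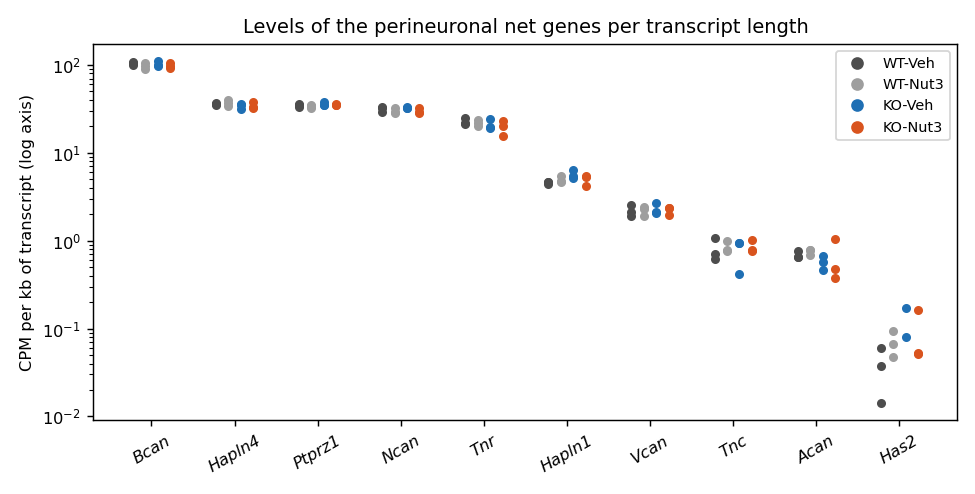
Level of each of the 10 net genes in CPM per kb of the longest transcript, on a log axis, with 1 point per library and the 4 groups in different colours (a library with no *Has2* read is not drawn). *Bcan* lies at 101 CPM per kb on average and *Has2* at 0.0698, and for *Bcan*, *Hapln4*, *Ncan* and *Tnr* the points of the 4 groups overlap.

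The lecticans differed greatly in level within the same tissue. Per kb of transcript, *Bcan* made up 74.8% ± 1.25 of the lectican sum, *Ncan* 23.1% ± 1.33, *Vcan* 1.66% ± 0.216 and *Acan* 0.490% ± 0.128 (SD, n = 12). *Acan*, the lectican most used to mark mature nets, thus rested on 51 to 137 reads per library, and *Bcan* on 5280 to 6588. The 250 bases before the RefSeq start (GRCm38.p6) of the most and the least abundant lectican are printed here to show the windows whose composition is compared, with every match to GGGCGG, the core of the GC box, on either strand in capitals. The *Bcan* window is at chr3:88000357-88000606 (minus strand) and the *Acan* window at chr7:79052976-79053225 (plus strand), both printed 5′ to 3′ along the gene's strand.
Bcan: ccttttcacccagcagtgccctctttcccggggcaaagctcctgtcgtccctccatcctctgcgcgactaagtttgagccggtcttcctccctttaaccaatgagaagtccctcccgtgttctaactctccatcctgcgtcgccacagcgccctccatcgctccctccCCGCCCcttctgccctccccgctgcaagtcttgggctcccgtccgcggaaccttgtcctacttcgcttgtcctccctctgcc
Acan: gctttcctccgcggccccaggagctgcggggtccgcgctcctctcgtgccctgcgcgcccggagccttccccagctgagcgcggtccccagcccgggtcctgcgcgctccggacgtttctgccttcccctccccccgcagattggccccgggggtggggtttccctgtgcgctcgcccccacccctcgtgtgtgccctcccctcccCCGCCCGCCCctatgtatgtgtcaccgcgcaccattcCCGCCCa

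The *Acan* window had 74.4% GC and 26 CpG dinucleotides, with 3 matches to GGGCGG, of which a pair overlap. The *Bcan* window had 62% GC, 16 CpG dinucleotides and 1 match. Over the 32851 windows of the RefSeq table, the median was 52.4% GC and 6 CpG dinucleotides, and 32.7% held GGGCGG on either strand. The table matched 8 of the 10 genes in 9 windows (*Tnc* has a pair of starts). *Hapln4* and *Has2* were not matched. GGGCGG was present in the windows of *Bcan*, *Tnc*, *Ptprz1*, *Acan*, *Ncan* and *Vcan*, and the letters were absent from those of *Tnr* and *Hapln1*. TATAAA, searched on both strands, was in the windows of *Tnc* and *Ncan* and in 12.4% of all windows. These matches describe letters in a window and not sites in use.

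*Acan* encodes aggrecan, the large lectican that nets of parvalbumin neurons depend on. Its level was 5.61, 4.83 and 4.74 CPM in WT-Veh (RH2, RH5 and RH15) and 5.73, 5.07 and 5.83 CPM in WT-Nut3 (RH1, RH9 and RH14). It was 4.90, 3.44 and 4.22 CPM in KO-Veh (RH7, RH10 and RH16) and 7.60, 3.49 and 2.80 CPM in KO-Nut3 (RH6, RH8 and RH13). RH6 was the highest of all 12 libraries and RH13 was the lowest. The KO-Veh and WT-Veh libraries overlapped. Without RH6, both remaining KO-Nut3 libraries were below every WT-Nut3 library, as for 9.86% of all genes. With all libraries, the log2 fold change of KO-Veh against WT-Veh was -0.27 ± 0.18 (SE) with an adjusted p of 0.795 in edgeR's quasi-likelihood test. It ranged from -0.39 without KO-Veh RH7 to -0.14 without KO-Veh RH10. For KO-Nut3 against WT-Nut3 it was -0.26 ± 0.33 (adjusted p = 0.950, edgeR), and without RH6 it was -0.82 (unadjusted p = 0.00319, adjusted p = 0.999 over all genes, edgeR). Over the 12 libraries the genotype effect was -0.26 ± 0.20 (adjusted p = 0.782, edgeR), and without RH6 it was -0.51 (unadjusted p = 0.00383, adjusted p = 0.360, edgeR). For KO-Nut3 against KO-Veh the sign turned, from 0.14 ± 0.34 with RH6 (adjusted p = 0.948, edgeR) to -0.41 without it (adjusted p = 0.918, edgeR). The other extreme library, RH13, moved these values in the opposite direction: without it they were -0.00076 for KO-Nut3 against WT-Nut3, -0.15 for the genotype effect and 0.40 for KO-Nut3 against KO-Veh. RH6 is the library with the high thalamus markers, and the part of those markers in its *Acan* level was not tested.

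*Bcan*, the brain-specific lectican brevican, was measured at 334, 311 and 339 CPM in WT-Veh and 329, 281 and 309 CPM in WT-Nut3. It was measured at 315, 305 and 348 CPM in KO-Veh and 328, 307 and 290 CPM in KO-Nut3. All 4 groups overlapped, and the coefficient of variation over the 12 libraries was 6.28%, against a median of 9.80% for the genes with a mean of at least 1 CPM. *Ncan*, the lectican of the developing and adult brain, ranged from 202 to 240 CPM with a coefficient of variation of 6.67%. Its lowest level, like those of *Bcan* and *Ptprz1*, was in WT-Nut3 RH9, a library with 4215 CPM of the choroid plexus gene *Ttr*. The part of that tissue in these levels was not tested. The log2 fold change of *Ncan* for KO-Nut3 against KO-Veh was -0.12 ± 0.065 (SE), the smallest p of the 10 genes in that comparison (unadjusted p = 0.0857, adjusted p = 0.712, edgeR), and -0.086 without RH6 (adjusted p = 0.943). *Vcan*, a lectican with several splice forms that is also made outside the nervous system, ranged from 23.8 to 33.8 CPM, with its highest level in KO-Veh RH16.

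The link proteins hold the lecticans on hyaluronan, and 1 of them was the only member below an unadjusted p of 0.05 with all libraries, in KO-Veh against WT-Veh, where 7.2% of all genes tested were. *Hapln1*, the cartilage link protein that neurons with nets also make, was at 26.5, 25.2 and 26.3 CPM in WT-Veh and 29.2, 31.1 and 36.8 CPM in KO-Veh. Every KO-Veh library was above every WT-Veh library, which held for 5.9% of all genes. The log2 fold change was 0.32 ± 0.094 (SE, 95% interval 0.11 to 0.52), a fold of 1.25, with an unadjusted p of 0.00474 and an adjusted p of 0.608 (edgeR), so it did not pass the test over all genes. It ranged from 0.22 without KO-Veh RH16 to 0.40 without KO-Veh RH7. Within animals numbered up to RH8 the KO-Veh library had 29.2 CPM against 26.5 and 25.2 CPM, and within those from RH9 the KO-Veh libraries had 31.1 and 36.8 CPM against 26.3 CPM. With this split of the numbers as a term, the log2 fold change was 0.27 (adjusted p = 0.791, edgeR).

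In WT-Nut3 *Hapln1* was at 30.9, 26.5 and 27.6 CPM, again above every WT-Veh library (3.6% of all genes were), although RH9 exceeded the highest of them by less than 0.1 CPM. The log2 fold change was 0.13 ± 0.085 (SE; unadjusted p = 0.157, adjusted p = 0.998, edgeR), and 0.063 without WT-Nut3 RH1. In KO-Nut3 the levels were 23.8, 29.96 and 31.5 CPM, and the lowest of them, RH6, was the lowest of all 12 libraries. Between KO-Nut3 and KO-Veh, *Hapln1* differed by a log2 fold change of -0.19 ± 0.12 (adjusted p = 0.760, edgeR), and -0.075 without RH6. The difference between the responses of the genotypes to Nutlin-3, tested as an interaction, was -0.31 ± 0.16 (unadjusted p = 0.0649, adjusted p = 0.994, edgeR), and -0.21 without RH6. The genotype effect over the 12 libraries was 0.16 ± 0.085 (adjusted p = 0.665, edgeR), and 0.22 without RH6 (unadjusted p = 0.00615, adjusted p = 0.373). Leaving out KO-Veh RH16 moved this effect the other way, to 0.097.

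*Hapln4*, the link protein known from brain synapses and nets of the hindbrain, was at 133, 130 and 127 CPM in WT-Veh and 145, 124 and 135 CPM in WT-Nut3. It was at 130, 128 and 116 CPM in KO-Veh and 138, 122 and 119 CPM in KO-Nut3, and all groups overlapped. For KO-Nut3 against WT-Nut3 the log2 fold change was -0.097 ± 0.081 (SE; adjusted p = 0.928, edgeR). Without RH6 it was -0.16 ± 0.068 (unadjusted p = 0.0439, adjusted p = 0.999, edgeR). Both remaining KO-Nut3 libraries were below every WT-Nut3 library, as for 9.86% of all genes. The genotype effect was -0.075 ± 0.049 with RH6 and -0.11 ± 0.046 without it (unadjusted p = 0.0352, adjusted p = 0.531, edgeR). Leaving out WT-Nut3 RH1 moved both the other way, to -0.038 for KO-Nut3 against WT-Nut3 and -0.049 for the genotype effect. Per kb of transcript, the ratio of *Hapln4* to *Hapln1* was 7.84 ± 0.253 in WT-Veh and 7.44 ± 0.200 in WT-Nut3, against 6.12 ± 1.06 in KO-Veh and 7.13 ± 1.70 in KO-Nut3 (SD, n = 3 each). The 6 WT libraries lay between 7.30 and 8.07 and the KO-Veh libraries at 6.98, 6.45 and 4.94. In KO-Nut3, RH8 and RH13 had ratios of 6.38 and 5.93, and RH6 had 9.07, the highest of all. No test was made of this ratio, because it was formed after both genes' values were seen.

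**Figure D2:**
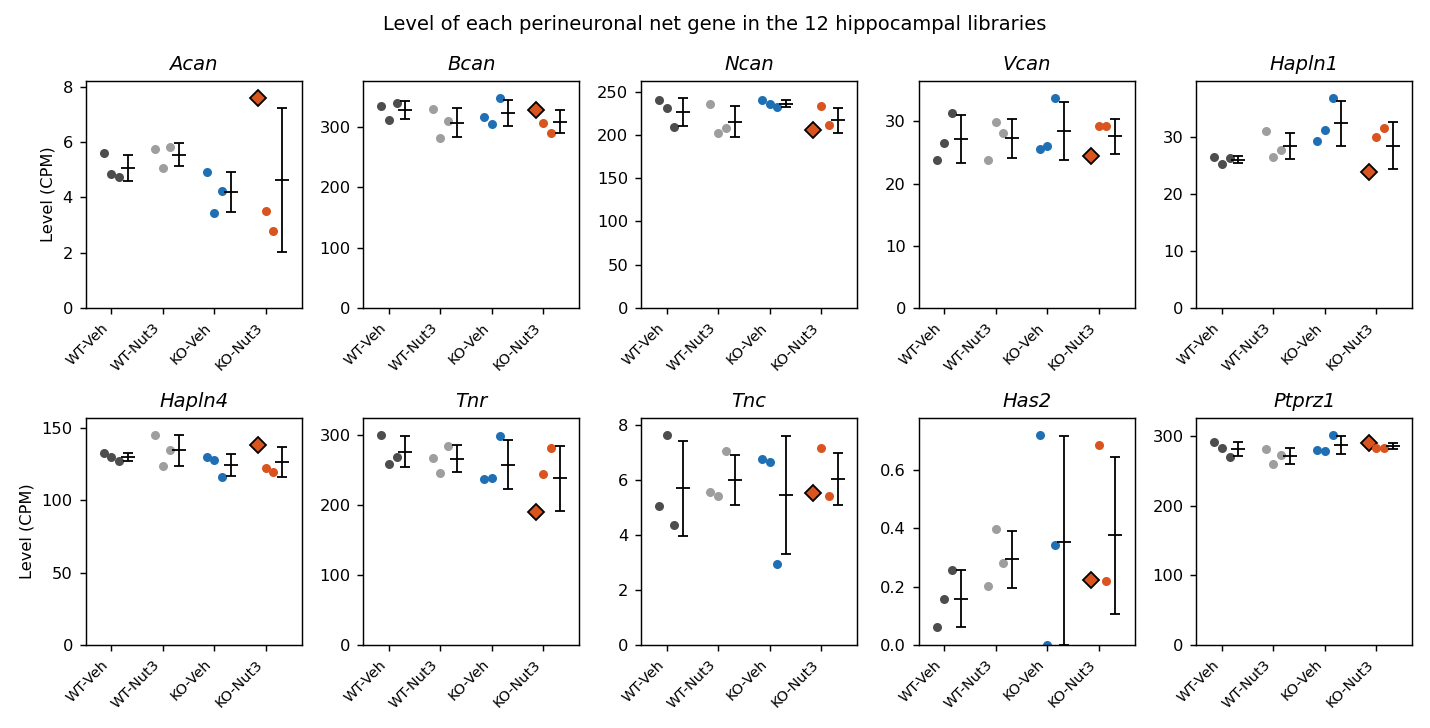
Level of each net gene in CPM in the 12 libraries, with 1 panel per gene, 1 point per library, the mean and SD of each group (n = 3) in black, an axis that starts at 0, and KO-Nut3 RH6 drawn as a diamond. RH6 is the highest library for *Acan* (7.60 CPM) and the lowest for *Tnr* (190 CPM) and *Hapln1* (23.8 CPM), and *Hapln1* is higher in all KO-Veh than in all WT-Veh libraries.

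Of the tenascins, *Tnr* made up 96.2% ± 1.03 of the summed level per kb (SD, n = 12). *Tnr* encodes tenascin-R, which crosslinks lecticans and is made in the adult brain by oligodendrocyte lineage cells and some neurons. It was measured at 301, 258 and 269 CPM in WT-Veh, 267, 247 and 285 CPM in WT-Nut3, 237, 239 and 299 CPM in KO-Veh, and 190, 244 and 281 CPM in KO-Nut3. RH6 was the lowest library, and all groups overlapped. For KO-Nut3 against WT-Nut3 the log2 fold change was -0.17 ± 0.13 (adjusted p = 0.928, edgeR), -0.021 without RH6 and -0.30 without KO-Nut3 RH13. For KO-Nut3 against KO-Veh it was -0.12 ± 0.14 (adjusted p = 0.865, edgeR), and 0.024 without RH6. The coefficient of variation of *Tnr* over the libraries fell from 12.04% with RH6 to 8.74% without it. The part of the lower hippocampal neuron markers of RH6 in its *Tnr* level was not tested.

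*Tnc* encodes tenascin-C, which is abundant in the developing brain and scarce in the adult, and it was measured from 52 to 146 reads per library. Its levels were 5.08, 7.67 and 4.38 CPM in WT-Veh, 5.58, 5.41 and 7.07 CPM in WT-Nut3, 6.76, 6.65 and 2.96 CPM in KO-Veh, and 5.55, 7.16 and 5.44 CPM in KO-Nut3. The lowest library, KO-Veh RH16, was also the highest for *Bcan*, *Vcan*, *Hapln1* and *Ptprz1*. The SE of the *Tnc* log2 fold change was 0.28 for KO-Nut3 against KO-Veh and for KO-Veh against WT-Veh, and neither value, 0.14 and -0.06, exceeded it. Without RH6 the first was 0.20 ± 0.30.

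*Has2*, a synthase that makes long hyaluronan chains, was close to the limit of detection. It had 1, 3 and 5 reads in WT-Veh, 4, 8 and 5 in WT-Nut3, 14, 0 and 6 in KO-Veh, and 4, 12 and 4 in KO-Nut3. The library with 0 reads and the library with the most, RH10 and RH7, belong to the same group. The log2 fold change of KO-Veh against WT-Veh was 1.12 with a 95% interval from -0.85 to 3.10, so a difference was not detectable at this depth. Leaving out RH7 it was 0.085, leaving out RH10 it was 1.69, and in limma-voom it was 0.26. *Has2* also shares 182 exon bases with the antisense gene *Has2os*, and reads in these bases were left uncounted for both genes in the unstranded counts.

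*Ptprz1*, which encodes the receptor phosphatase and phosphacan, varied least of the 10, with a coefficient of variation of 3.85%. It was measured at 291, 282 and 270 CPM in WT-Veh, 281, 260 and 274 CPM in WT-Nut3, 280, 279 and 302 CPM in KO-Veh, and 291, 283 and 283 CPM in KO-Nut3. All 3 KO-Nut3 libraries were above all WT-Nut3 libraries, as for 5.3% of all genes, by a log2 fold change of 0.07 ± 0.057 (SE; unadjusted p = 0.269, adjusted p = 0.929, edgeR). It was 0.059 ± 0.053 without RH6 and 0.036 without WT-Nut3 RH9.

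None of the 10 genes passed an adjusted p of 0.05 in edgeR in any comparison, with or without RH6. For KO-Nut3 against KO-Veh, 0 of 10 were called beside 0.199% of all genes tested (45 genes), and 0 of 10 had an unadjusted p under 0.05, beside 7.6% of all genes. In 0 of 10 did the groups not overlap, beside 13.3% in either direction. The median log2 fold change of the 10 was -0.027, beside 0.0034 for all genes, and 4 of 10 were positive, beside 50.8% of all genes. For KO-Veh against WT-Veh, 0 of 10 were called beside 0.0177% of all genes, and 1 of 10 (*Hapln1*) had an unadjusted p under 0.05, beside 7.2% of all genes. In that comparison 1 of 10 genes was higher without overlap of the groups, beside 5.9% of all genes. For WT-Nut3 against WT-Veh, 0 of 10 were called beside 0% of all genes, 0 of 10 had an unadjusted p under 0.05 beside 3.17%, and 1 of 10 (*Hapln1*) was higher without overlap, beside 3.6%. Without WT-Nut3 RH9, the library rich in *Ttr*, 0 of 10 had an unadjusted p under 0.05 beside 2.65%, and 3 of 10 (*Acan*, *Hapln1* and *Hapln4*) were higher without overlap, beside 7.77%. For KO-Nut3 against WT-Nut3, 0 of 10 were called beside 0.00443%, 0 of 10 had an unadjusted p under 0.05 beside 4.87%, and 1 of 10 (*Ptprz1*) was higher without overlap, beside 5.3%. Neither the genotype effect (0.00443% of all genes called), the treatment effect (0%) nor the interaction (0%) over the 12 libraries had a member called or with an unadjusted p under 0.05, beside 8.16%, 7.29% and 4.17% of all genes. Without RH6, 0 of 10 were called for KO-Nut3 against KO-Veh beside 0.288% of all genes, 0 of 10 had an unadjusted p under 0.05 beside 6.37%, and in 0 of 10 did the groups not overlap beside 21.1%. The median of the 10 was then -0.035, beside -0.0033 for all genes, and 4 of 10 were positive, beside 49%. For KO-Nut3 against WT-Nut3 without RH6, 0 of 10 were called beside 0.00443%, and 2 of 10 (*Acan* and *Hapln4*, both lower) had an unadjusted p under 0.05, beside 4.11%. The groups did not overlap for these genes, both lower beside 9.86% of all genes, or for *Ptprz1*, higher beside 9.6%. For the genotype effect without RH6, 0 of 10 were called beside 0.0443%, and 3 of 10 (*Acan*, *Hapln1* and *Hapln4*) had an unadjusted p under 0.05, beside 8.88%. For the treatment effect without RH6, 0 of 10 were called beside 0%, and 1 of 10 (*Bcan*, log2 fold change -0.10 ± 0.048, unadjusted p = 0.0481, adjusted p = 0.821, edgeR) was under it, beside 6.06%. With all 12 libraries the treatment effect on *Bcan* was -0.082 ± 0.049 (unadjusted p = 0.116, edgeR), and without WT-Nut3 RH9 it was -0.054. For the interaction without RH6, 0 of 10 were called beside 0%, and 0 of 10 had an unadjusted p under 0.05, beside 3.38%. DESeq2 and limma-voom, with all libraries, also called 0 of 10 in every comparison. With so few genes, nothing is read from these shares about the 10 as a group.

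The intervals say how large a difference could have been missed. For the 7 members with a mean of at least 20 CPM (*Bcan*, *Ncan*, *Vcan*, *Hapln1*, *Hapln4*, *Tnr* and *Ptprz1*), the 95% intervals for KO-Nut3 against KO-Veh lay between log2 values of -0.47 (*Hapln1*) and 0.24 (*Vcan*), or folds of 0.723 and 1.18. For KO-Veh against WT-Veh they lay between -0.28 (*Tnr*) and 0.52 (*Hapln1*), or folds of 0.821 and 1.43. For WT-Nut3 against WT-Veh the bounds were -0.26 (*Vcan*) and 0.32 (*Hapln1*), and for KO-Nut3 against WT-Nut3 -0.45 (*Tnr*) and 0.27 (*Vcan*). For *Bcan* alone the interval for KO-Nut3 against KO-Veh was -0.23 to 0.10, and for *Ptprz1* it was -0.14 to 0.12. For *Acan* it was -0.62 to 0.91 and for *Tnc* -0.49 to 0.78, so for these low genes changes of 1.5-fold in either direction lay within the interval or close to its bound. Without RH6 the intervals of the 7 genes for KO-Nut3 against KO-Veh lay between -0.31 (*Hapln1*) and 0.31 (*Vcan*), and those for KO-Nut3 against WT-Nut3 between -0.31 (*Hapln4*) and 0.36 (*Vcan*). That of *Bcan* was then -0.25 to 0.025, that of *Ptprz1* -0.14 to 0.099, that of *Acan* -0.94 to 0.11 and that of *Tnc* -0.45 to 0.86.

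**Figure D3:**
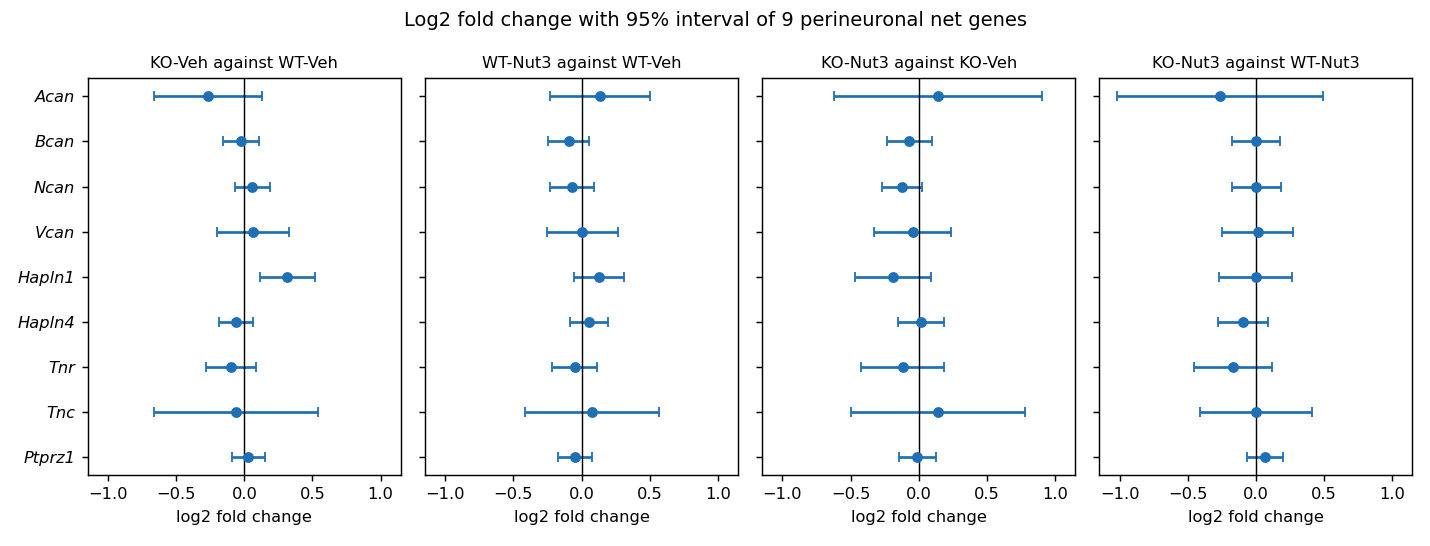
Log2 fold change (point) with its 95% interval (bar) of 9 net genes in the 4 pair comparisons, from edgeR's quasi-likelihood fit on the 6 libraries of each pair. *Has2* is not drawn because its intervals are wider than the axis. Only the interval of *Hapln1* for KO-Veh against WT-Veh, 0.11 to 0.52, leaves out 0.

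The genes that make, modify, bind or cut the net were looked at in 4 lists with 71 genes, of which 69 were tested. The lists were chosen with earlier results of these data known. *Timp3*, on one of them, had been reported by the paper as changed by Nutlin-3 in knockout mice. Shares of the lists are therefore printed beside those of all genes as a description, and nothing is read from them. In edgeR none of the 69 passed an adjusted p of 0.05 in any of the 7 comparisons, nor without RH6 in the 5 that hold it, and limma-voom called none with all libraries. DESeq2 called 3 of them, all higher, for KO-Nut3 against KO-Veh (*Timp3*, *Otx2* and *Bgn*), beside 1.08% of all genes, and 1 for the treatment effect (*Otx2*), beside 0.35%. Without RH6 it called *Timp3* and *Bgn* for KO-Nut3 against KO-Veh, beside 0.589%. For the treatment effect without RH6 it gave *Otx2* no p-value, with a log2 fold change of 4.13 against 4.30 with all libraries. It also called 1 gene for the genotype effect without RH6, beside 0.323%. That gene was *Tnxb*, which encodes tenascin-X, with a log2 fold change of 0.33 ± 0.074 (SE; adjusted p = 0.00324, DESeq2) that edgeR gave as 0.33 ± 0.067 (adjusted p = 0.159). With all 12 libraries the effect on *Tnxb* was 0.26 in both tools, with an adjusted p of 0.193 in DESeq2 and 0.446 in edgeR. Its level was 38.8 to 46.9 CPM in the WT libraries and 37.8 to 60.5 CPM in the KO libraries, with the lowest level in RH6. For KO-Nut3 against KO-Veh, 9 were higher and 1 lower at an unadjusted p under 0.05, beside 5.75% and 1.85% of all genes. Without RH6, 8 were higher and 0 lower, beside 4.66% and 1.72% of all genes. For KO-Veh against WT-Veh 13.04% of the 69 were under it, beside 7.2% of all genes, for WT-Nut3 against WT-Veh 10.1% beside 3.17%, and for KO-Nut3 against WT-Nut3 8.70% beside 4.87%. Without RH6, 5 of the 69 were under it in the last of these, beside 4.11% of all genes.

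Of the 20 tested proteases, hyaluronidases and inhibitors, 14 had positive log2 fold changes for KO-Nut3 against KO-Veh, beside 50.8% of all genes, with a median of 0.15, beside 0.0034. At an unadjusted p under 0.05, 5 were higher and 0 lower, beside 5.75% and 1.85% of all genes. Without RH6, 12 were positive, beside 49% of all genes, with a median of 0.14, beside -0.0033, and again 5 were higher and 0 lower at an unadjusted p under 0.05, beside 4.66% and 1.72%. For KO-Veh against WT-Veh, which shares the KO-Veh libraries, 6 were positive and 14 negative, beside 48.9% of all genes positive. Their median was -0.11 there, beside -0.0043. Nothing is read from these shares either, since this list was chosen with earlier results of these data known. Markers of other cell types were also higher at an unadjusted p under 0.05 for KO-Nut3 against KO-Veh. They included 9 of the 9 choroid plexus markers, 7 of the 8 fibroblast markers (median log2 fold change 1.37), 4 of the 5 endothelial markers (median 0.25) and 3 of the 6 oligodendrocyte markers (median 0.23). They also included 2 of the 4 ependymal, 2 of the 7 thalamic, 1 of the 6 mural (median 0.55) and 1 of the 9 parvalbumin interneuron markers (median 0.091). Of these lists, genes past an adjusted p of 0.05 (edgeR) were found among the choroid plexus markers (5 of 9) and the fibroblast markers (1 of 8). Without RH6 the numbers at an unadjusted p under 0.05 were 9 for choroid plexus, 7 for fibroblasts (median 1.43), 4 for endothelium (median 0.28), 3 for oligodendrocytes (median 0.11), 2 for ependyma, 0 for thalamus and 4 for mural cells (median 0.68). There were then 0 for parvalbumin interneurons and 1 for CA2 pyramidal neurons. Summed over the list, the fibroblast markers had 91.0, 184 and 88.4 CPM in the KO-Nut3 libraries against 75.9, 84.6 and 89.9 CPM in those of KO-Veh. The WT-Veh sums were 64.6, 145 and 80.0 CPM and the WT-Nut3 sums 74.0, 86.1 and 46.1 CPM. Their part in the levels of the proteases and inhibitors was not tested. *Timp3*, an inhibitor of matrix metalloproteases and of the ADAMTS enzymes that cleave lecticans, was at 61.6, 56.4 and 74.7 CPM in KO-Veh and 90.7, 94.1 and 84.2 CPM in KO-Nut3. Its groups did not overlap, as for 13.3% of all genes in either direction. Its log2 fold change was 0.48 ± 0.10 (SE; unadjusted p = 0.000821, adjusted p = 0.136, edgeR), and 0.47 ± 0.10 without RH6 (adjusted p = 0.0991). DESeq2 gave 0.48 ± 0.11 (SE; adjusted p = 0.00453) and 0.47 ± 0.11 without RH6 (adjusted p = 0.00851). Against WT-Nut3 (53.7, 80.2 and 56.0 CPM) it was 0.50 ± 0.14 (adjusted p = 0.928, edgeR), and 0.49 ± 0.15 without RH6 (adjusted p = 0.999). In WT-Veh the levels were 45.7, 77.0 and 77.5 CPM, with no more than 9.56 CPM of *Ttr*. In WT-Nut3 the library with the highest *Timp3*, RH9, was the one with 4215 CPM of *Ttr*, and the 3 KO-Nut3 libraries had 3091, 314 and 4520 CPM of *Ttr* against 3.15 to 18.2 CPM in all libraries but these 4. RH8 had the least *Ttr* of the KO-Nut3 libraries and the most *Timp3*. A pair of WT-Veh libraries, RH5 and RH15, came close to RH9. The fibroblast sums were 184 CPM in RH8, 145 CPM in WT-Veh RH5, 80.0 CPM in WT-Veh RH15 and 86.1 CPM in RH9. The parts of choroid plexus tissue and of fibroblasts in the *Timp3* levels were not tested.

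*Otx2*, a homeoprotein that is made in the choroid plexus and taken up by neurons with nets, was the other gene with a small p. It was at 28.0, 3.04 and 19.2 CPM in KO-Nut3 and 22.4 CPM in WT-Nut3 RH9, and from 0.158 to 2.45 CPM in the other 8 libraries. Its log2 fold change for KO-Nut3 against KO-Veh was 3.75 ± 0.76 (SE; adjusted p = 0.121, edgeR), and 3.16 ± 0.65 without RH6 (adjusted p = 0.0868). DESeq2 gave 3.74 ± 1.01 (SE; adjusted p = 0.0213) and 3.15 ± 1.17 without RH6 (adjusted p = 0.408). For KO-Veh against WT-Veh it was 2.17 ± 0.61 (adjusted p = 0.608, edgeR), and for WT-Nut3 against WT-Veh 4.88 ± 1.27 (adjusted p = 0.998, edgeR). Without RH9 the last of these was 1.85 ± 0.54 (adjusted p = 1, edgeR), with RH1 and RH14 at 0.761 and 1.23 CPM and the WT-Veh libraries at 0.239, 0.158 and 0.412 CPM, so RH9 carried much of the size of the fold. The choroid plexus markers were summed over 9 genes, with *Ttr* the most abundant and none at 0. The sums were 3500, 373 and 5030 CPM in KO-Nut3, 40.7, 4698 and 49.0 CPM in WT-Nut3, 35.5, 36.5 and 25.9 CPM in WT-Veh, and 27.8, 40.3 and 43.2 CPM in KO-Veh. The libraries with high *Otx2* were those with high sums, and *Otx2* is itself one of the 9 genes. *Bgn*, the small proteoglycan biglycan, had 13.8, 21.7 and 15.8 CPM in KO-Nut3, above all of the KO-Veh libraries (10.8, 7.67 and 12.4 CPM). These groups did not overlap for 13.3% of all genes in either direction. *Bgn* was at 9.20, 22.0 and 13.3 CPM in WT-Veh and 11.6, 14.5 and 10.04 CPM in WT-Nut3. Its log2 fold change for KO-Nut3 against KO-Veh was 0.73 ± 0.21 in edgeR (SE; adjusted p = 0.324) and 0.72 ± 0.21 in DESeq2 (adjusted p = 0.0457). Without RH6 it was 0.86 ± 0.20 in edgeR (adjusted p = 0.124) and 0.86 ± 0.22 in DESeq2 (adjusted p = 0.0132). The highest levels of *Bgn*, in WT-Veh RH5 and KO-Nut3 RH8, were in the libraries with the highest fibroblast sums.

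Among the other genes with the smallest p, *Cspg4*, the NG2 proteoglycan of oligodendrocyte precursors, was lower in KO-Veh (28.3, 22.5 and 27.1 CPM) than in WT-Veh (32.7, 33.7 and 31.3 CPM), with a log2 fold change of -0.32 ± 0.092 (SE; adjusted p = 0.608, edgeR). *Mmp9*, a gelatinase known to act on nets, had 1.57, 1.29 and 0.953 CPM in WT-Nut3 and 1.79, 2.57 and 2.88 CPM in WT-Veh, a log2 fold change of -0.92 ± 0.28 (adjusted p = 0.998, edgeR). *Itgb1*, an integrin subunit and receptor of matrix proteins, had a log2 fold change of 0.29 ± 0.089 for KO-Nut3 against WT-Nut3 (adjusted p = 0.928, edgeR), and 0.25 ± 0.094 without RH6 (adjusted p = 0.999). The 22 tested genes of chondroitin sulfate synthesis and sulfation encode the enzymes that build the sugar chains of the lecticans. Of these, 0 had an unadjusted p under 0.05 for KO-Nut3 against KO-Veh, beside 7.6% of all genes. Without RH6 it was again 0, beside 6.37%. Their median log2 fold change was -0.0028 in that comparison, with 10 positive and 12 negative, beside 50.8% of all genes positive. Without RH6 the median was 0.019, with 15 positive and 7 negative, beside 49% of all genes positive. It was -0.052 for KO-Veh against WT-Veh, with 6 of 22 positive beside 48.9% of all genes. Of the 13 receptors, 8 were positive and 5 negative for KO-Nut3 against KO-Veh, beside 50.8% of all genes positive. Of the 14 other link proteins, tenascins, synthases and net-associated factors 6 were positive and 8 negative. Without RH6 these numbers were 5 and 8 for the receptors and 7 and 7 for the other genes, beside 49% of all genes positive.

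The cells that carry or make nets were followed by their markers. The 9 markers of parvalbumin interneurons summed to 861 to 988 CPM in 11 libraries and to 1133 CPM in KO-Nut3 RH6, with *Gad1*, the GABA-synthesizing enzyme, the most abundant at 287 to 365 CPM. In RH6, 6 of the 9 genes were at their highest and 2 at their lowest. The latter were *Lhx6*, a transcription factor of interneurons from the medial ganglionic eminence, at 11.9 CPM against 17.3 to 23.1 CPM elsewhere, and *Erbb4*, a neuregulin receptor, at 77.1 CPM against 82.1 to 104 CPM. *Pvalb* itself was at 20.2, 22.7 and 23.3 CPM in WT-Veh, 25.6, 20.7 and 20.1 CPM in WT-Nut3, 20.6, 19.1 and 18.2 CPM in KO-Veh, and 27.1, 16.2 and 19.2 CPM in KO-Nut3. As for *Acan*, RH6 was the highest library. *Syt2*, a synaptotagmin of fast-spiking terminals, had the widest range of the list, at 124 CPM in RH6 and 23.4 to 51.7 CPM elsewhere. The 6 CA2 markers summed to 194 CPM in RH6 and to 216 to 247 CPM elsewhere, with *Rgs14*, a signalling regulator of CA2 neurons, the most abundant at 66.4 to 118 CPM and *Map3k15* the most variable at 1.32 to 6.54 CPM. Another CA2 marker, *Pcp4*, was at 0.263 to 0.968 CPM. None of the markers of these lists passed an adjusted p of 0.05 in any comparison, with or without RH6, and none was at 0 in any library. For the genotype effect without RH6, 2 of the 9 parvalbumin markers were higher and 4 lower at an unadjusted p under 0.05 (edgeR), beside 8.88% of all genes. Of the 6 CA2 markers, 0 were higher and 1 lower. With all 12 libraries, 1 parvalbumin marker was higher and 1 lower, beside 8.16% of all genes.

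The 7 astrocyte markers summed to 4036 CPM (WT-Nut3 RH9) to 5024 CPM (KO-Veh RH16), with the glutamate transporter *Slc1a2* the most abundant (2707 to 3408 CPM) and *Slc1a3* the most variable (491 to 806 CPM). The libraries with the lowest and the highest astrocyte sums were those with the lowest and the highest levels of *Bcan* and *Ptprz1*. KO-Nut3 RH6, the library with the high thalamus markers, had the next lowest sum, 4093 CPM. It ranked 8 of 12 for *Bcan* and 10 of 12 for *Ptprz1*, counted from the lowest. The part of astrocyte content in these levels was not tested. The 7 markers of oligodendrocyte precursors summed to 284 CPM (WT-Nut3 RH9) to 364 CPM (WT-Nut3 RH1), with *Olig1* the most abundant (91.5 to 125 CPM) and *Lhfpl3* the most variable (11.2 to 23.7 CPM). No gene of either list passed the test in any comparison with all libraries in edgeR. Without RH6, *Aqp4*, the water channel of astrocyte endfeet, passed it for the genotype effect, with a log2 fold change of 0.26 ± 0.041 (adjusted p = 0.0320, edgeR).

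**Figure D4:**
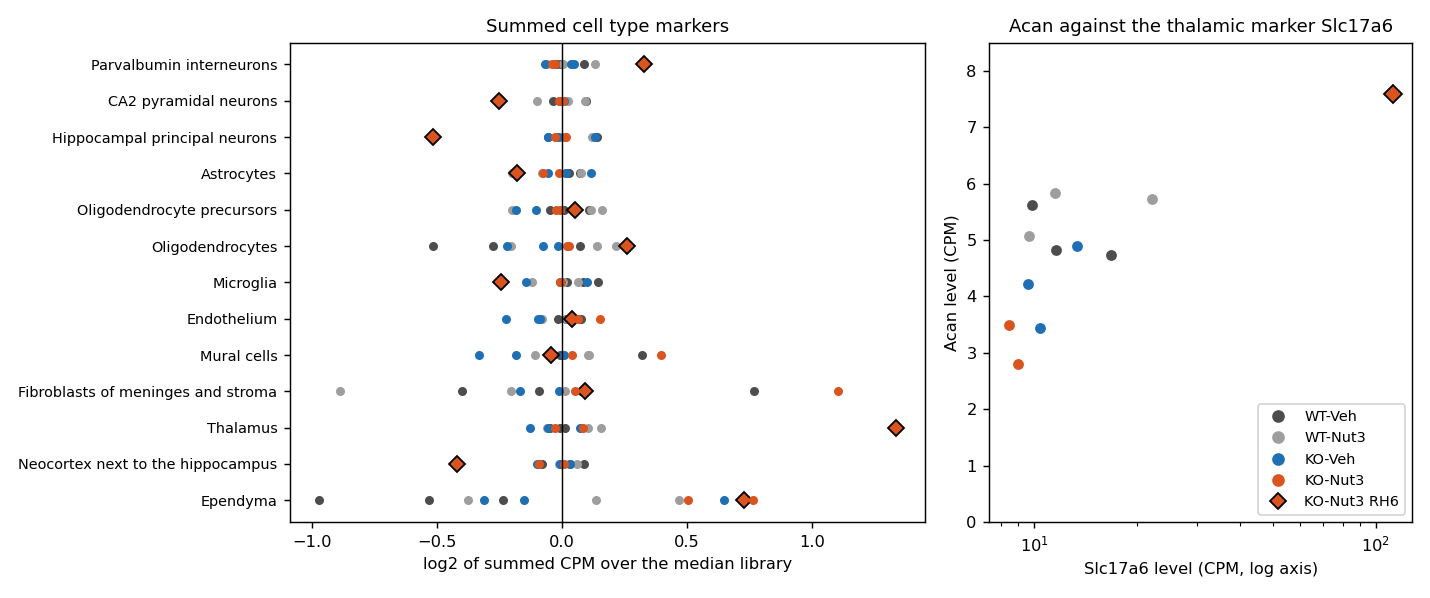
Left, summed CPM of each marker list in each library as the log2 ratio to the median library, with choroid plexus left out because its range is far wider. Right, *Acan* level against the level of the thalamic marker *Slc17a6* (log axis) in the 12 libraries. KO-Nut3 RH6 (diamond) has the highest thalamus sum (353 CPM), the lowest sum of hippocampal principal neurons (946 CPM), and the highest *Slc17a6* (113 CPM) and *Acan* (7.60 CPM).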

How the data were processed

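Poly(A) RNA-seq of 12 mouse hippocampi was used, 3 per group by the sample labels. The authors mapped the reads to mm10 with STAR, whose version is not given in the sources used here, and deposited raw counts of reads per gene. The unstranded counts were used, because reads fell about equally on both strands. A deposited table of the whole series was not used here.

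Genes with more than 20 counts over the 12 libraries were tested with edgeR 4.0.16 (R 4.3.3; TMM, two-sided quasi-likelihood test, Benjamini-Hochberg adjusted p under 0.05), each pair of groups on its 6 libraries, and genotype, treatment and their interaction on all 12. The SE is the log2 fold change divided by the square root of F, and intervals use its degrees of freedom. P-values measure the spread between mice. The procedure was tested on simulated data. Depth was 21772933 to 25498894 reads per library. The labels name single reads and the study's methods read pairs, so a counted read may stand for a pair.

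Gene positions, transcript lengths and overlaps are from GENCODE M21 (GRCm38), and promoter windows from RefSeq (GRCm38.p6). The members and the lists of pathway and marker genes were chosen with earlier results of these data known. Beside the 10 members, the text names *Fmr1*, in each pair of groups the 2 pathway genes with the smallest p, in each marker list the most abundant and the most variable gene, and the 3 genes most like each of the 3 most variable members. Genes outside this rule (*Bgn*, *Tnxb*, *Pvalb*, *Lhx6*, *Erbb4*, *Pcp4*, *Aqp4*, *Wfs1*, *Tagln*, *Hapln2*, *Hapln3*) were chosen after their values were seen. *Gm38039*, *8030451A03Rik* and *Has2os* are named for the exon bases that they share with a member. Alternatives were DESeq2 1.42.0, limma-voom (limma 3.58.1), DESeq2 size factors, 2 other count filters, the summed strand columns, a term for animals RH1 to RH8 against RH9 to RH16, all 12 libraries in one fit, and leaving out each library.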

Additional observations from a re-analysis of the deposited data

How the results depend on the processing

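No paired analysis was possible, because each animal number occurs in 1 library and so in 1 group, and the sample labels give no litter. The number of net genes called was 0 of 10 in all 7 comparisons and stayed at 0 in all 113 other settings, which are those named with the methods. Of 1123 log2 fold changes of the members under these settings, 108 changed sign, 85 of them among the 600 with 1 library left out, and 37 of the 70 member values had such a change under some setting.

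The term for animals RH1 to RH8 against RH9 to RH16 is a split whose meaning the labels do not give. With this term, the log2 fold change for KO-Nut3 against KO-Veh turned to -0.12 for *Acan*, 0.017 for *Vcan*, -0.020 for *Hapln4* and -0.31 for *Has2*. That for KO-Veh against WT-Veh turned to -0.028 for *Vcan* and 0.10 for *Tnc*. With the summed strand columns *Has2* turned to -0.10 for KO-Nut3 against KO-Veh. Leaving out each library in turn, the values for KO-Nut3 against KO-Veh ranged from -0.41 to 0.40 for *Acan*, -0.12 to 0.10 for *Vcan*, -0.048 to 0.060 for *Hapln4*, -0.25 to 0.024 for *Tnr*, -0.15 to 0.33 for *Tnc*, -0.70 to 1.10 for *Has2* and -0.030 to 0.031 for *Ptprz1*. Those for KO-Veh against WT-Veh ranged from -0.075 to 0.019 for *Bcan*, -0.075 to 0.18 for *Vcan*, -0.24 to 0.24 for *Tnc* and -0.0034 to 0.059 for *Ptprz1*. The cause was not tested. *Hapln1* for KO-Veh against WT-Veh stayed positive in every setting run. Its smallest adjusted p was 0.0678, with all genes of at least 1 count tested by edgeR, against 0.608 in the main edgeR fit. That setting called 272 of all genes in this comparison, against 4 in the main fit.

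The count of all genes called moved more. For KO-Nut3 against KO-Veh it was 45, 6 without KO-Veh RH7 or RH10, 7 without KO-Veh RH16, 266 without KO-Nut3 RH8, 245 with DESeq2, 19 with limma-voom, 20 with the split of the animal numbers as a term and 0 with all 12 libraries in one fit. For KO-Veh against WT-Veh it was 4, 11 without WT-Veh RH15, 2 without KO-Veh RH7 or RH10, 22 with DESeq2 and 21 with the split of the animal numbers. DESeq2 called 7 genes beside 1 for KO-Nut3 against WT-Nut3, 43 beside 1 for genotype, 79 beside 0 for treatment and 1 beside 0 for the interaction. With all genes of at least 1 count tested, 38 to 544 genes were called per comparison. With 3 mice per group, the low read numbers of *Acan*, *Tnc* and *Has2* limit what could be seen.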

Other observations

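The 3 members that varied most on the log2 scale, with a mean of at least 1 CPM, were *Acan*, *Tnc* and *Tnr*. The genes with the most similar levels over the 12 libraries, by Pearson's r of log2 CPM and as a description only, were *Tarbp1* (r = 0.920), *Gm37691* (0.920) and *Gm42984* (0.899) for *Acan*. For *Tnc* they were *Gemin5* (0.926), *Nkd2* (0.905) and *Sigirr* (0.865), and for *Tnr* they were *Npy1r*, a neuropeptide Y receptor (0.959), *Plxna4*, a semaphorin receptor (0.953), and *Cacna1e*, a calcium channel subunit (0.948). The points share sequencing depth and the composition of each library. Without KO-Nut3 RH6 the r values ranged from 0.858 (*Gm42984*) to 0.882 for *Acan*, from 0.871 (*Sigirr*) to 0.965 (*Gemin5*) for *Tnc*, and from 0.874 (*Cacna1e*) to 0.900 (*Npy1r*) for *Tnr*. RH6 held the lowest *Npy1r* (22.8 CPM against 29.3 to 37.2 CPM elsewhere), as it did the lowest *Tnr*.

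The exons of 3 members overlap a gene on the opposite strand. The reads counted on each strand separately summed to 107% of the unstranded count for *Tnr*, 106% for *Tnc* and 142% for *Has2*, and to 100% or 102% for the other members. *Tnr* shares 443 exon bases with *Gm38039*, *Tnc* 176 with *8030451A03Rik* and *Has2* 182 with *Has2os*, and reads in these bases were left uncounted for both genes in the unstranded column.

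Of the remaining marker lists, oligodendrocyte markers summed to 3445 CPM in WT-Veh RH2 and 5897 CPM in KO-Nut3 RH6, the extremes, with *Mbp* at 1798 to 2874 CPM and *Mog* at 30.7 to 61.7 CPM. Microglia markers summed to 197 CPM in RH6 and 212 to 258 CPM elsewhere (*Csf1r* 72.2 to 98.0 CPM, *P2ry12* 24.3 to 36.9 CPM). Endothelial markers summed to 189 to 245 CPM (*Flt1* 67.7 to 87.8 CPM, *Cldn5* 23.9 to 46.9 CPM) and mural markers to 114 to 189 CPM (*Rgs5* 76.7 to 106 CPM, *Myh11* 5.70 to 24.4 CPM, *Tagln* at 0 in at least 1 library). Fibroblast markers summed to 46.1 to 184 CPM (*Dcn* 20.4 to 58.3 CPM, *Igf2* 0.280 to 5.84 CPM), neocortex markers to 57.4 CPM in RH6 and 71.7 to 81.7 CPM elsewhere (*Fezf2* 18.5 to 55.0 CPM), and ependyma markers to 12.7 to 42.5 CPM (*Foxj1* 8.24 to 26.8 CPM, *Tmem212* 0.836 to 4.47 CPM). Beside *Fmr1*, the marker genes past an adjusted p of 0.05 in edgeR were *Wfs1* for KO-Veh against WT-Veh (log2 fold change -0.44) and, for KO-Nut3 against KO-Veh, *Igf2* (2.75) and 5 of the 9 choroid plexus genes, all higher. Without RH6, *Igf2* (2.71) and 7 of the 9 choroid plexus genes passed it for KO-Nut3 against KO-Veh, and *Wfs1* (-0.51) and *Aqp4* (0.26) for the genotype effect.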
